A study of Mus musculus with 20 samples.

Results

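Glutathione transferases and UDP-glucuronosyltransferases are the large enzyme families that make small molecules easier to excrete. Their probes were taken by name, as every probe whose listed gene symbol begins with Gst or Ugt followed by a letter or digit, where the scanner software marked it well above background on at least 4 arrays of a tissue. Of 47 such probes among the 41174 on the array, 44 met the rule in liver or white adipose tissue (WAT), for 34 of the 27962 gene names listed: 42 in liver, 40 in WAT and 38 in both. The 47 probes divide into 26 for 20 Gst genes and 21 for 14 Ugt genes. The microsomal Mgst genes fall outside the naming rule. Of the 3 probes that met it in neither tissue, 1 is for Ugt2a1 and 2 are for Ugt8a.

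The 4 groups compared were of 5 male C57BL/6 mice aged 5 months: wild-type (WT) liver, sg/sg liver, WT WAT and sg/sg WAT. The sg/sg (RORasg/sg, staggerer) mice carry on both copies of Rora a deletion that arose naturally, and so lack functional RORα, a nuclear receptor, in all their cells. Animals of both genotypes ate a diet with 35% fat for 6 weeks, so neither genotype has a lean counterpart here. The labels name neither the fat depot nor whether a liver and a WAT array of one number share a mouse, and the comparison asks which of these genes differ with loss of RORα.

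Glutathione transferases join the tripeptide glutathione to electrophiles, among them drugs and the aldehydes that oxidised lipids release. They are grouped by sequence into classes named by Greek letters, with alpha, mu and pi enzymes abundant in liver and theta, omega, kappa and zeta enzymes doing more specialised work. UDP-glucuronosyltransferases sit in the endoplasmic reticulum and attach a sugar to bilirubin, steroids, bile acids and drugs. The Ugt1a enzymes come from 1 locus in which alternative first exons are joined to a shared set of later exons. The Ugt2b and Ugt3 enzymes have genes of their own.

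Probe sequences are shown for the genes on which the results turn, because close relatives can bind the same probe. They are given 5′ to 3′ from the array files, with positions on mouse build mm7 as listed there. Capitals mark the stretch in which the Gsta1 and Gsta2 probes cover the same part of their transcripts.
Gsta1: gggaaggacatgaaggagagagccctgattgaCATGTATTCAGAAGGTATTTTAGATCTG
Gsta2: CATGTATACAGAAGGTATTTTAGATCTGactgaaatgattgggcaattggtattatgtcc
In that stretch of 28 bases, 27 were identical and the single difference was T40A, counted from the 5′ end of the Gsta1 probe. No position was listed for the Gsta1 probe, and that of Gsta2 was chr9:78408171-78408230 on the minus strand. How far either probe measured the other transcript was not tested.

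The next 6 probes are of other genes called in a tissue, and have no capitals because no shared stretch is marked.
Gsta4: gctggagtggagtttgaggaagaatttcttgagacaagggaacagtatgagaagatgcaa
Gstp1: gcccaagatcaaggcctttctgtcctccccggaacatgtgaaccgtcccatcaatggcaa
Gstp1, other probe: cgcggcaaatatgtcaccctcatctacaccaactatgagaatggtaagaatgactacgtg
Gstt1: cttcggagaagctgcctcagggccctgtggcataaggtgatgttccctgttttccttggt
Gstt2: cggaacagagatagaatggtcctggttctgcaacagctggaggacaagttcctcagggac
Gsto2: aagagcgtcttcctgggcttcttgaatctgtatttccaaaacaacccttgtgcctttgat
The Gsta4 probe was listed at chr9:78241323-78242428 on the plus strand, the Gstp1 probes at chr19:3930292-3930351 and chr19:3930714-3931529 on the minus strand, and the Gsto2 probe at chr19:47786597-47786656 on the plus strand. Gstt1 was listed at chr10:75442599-75449763 and Gstt2 at chr10:75488112-75488171, both on the minus strand. Where listed positions span more than the 60 bases of a probe, its sequence lies in pieces that are apart in the genome.

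Within the Ugt1a locus, 3 upstream probes and 1 probe farther 3′ were listed. The 3 upstream probes are shown because they are listed under 3 different Ugt1a genes.
Ugt1a9: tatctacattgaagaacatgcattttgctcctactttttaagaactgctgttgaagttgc
Ugt1a6b: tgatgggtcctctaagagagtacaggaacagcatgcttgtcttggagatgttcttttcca
Ugt1a1: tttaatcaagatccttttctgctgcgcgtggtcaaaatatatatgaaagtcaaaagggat
They lie in this order on the plus strand, at chr1:87975078-87975137, chr1:88010877-88010936 and chr1:88115927-88115986. The fourth probe, listed under Ugt1a6b as well, lies at chr1:88122519-88122578, 6.53 kb beyond the Ugt1a1 probe, and is called the 3′-most probe here. No annotation of mm7 was used, so the exon under each probe is not stated.

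Levels are given as log2 of the processed intensity minus the array's 75th percentile of intensity, so 0 is the 75th percentile and each unit is a doubling. Each change is a log2 fold change, positive where sg/sg mice were higher, given with its standard error (SE) and an adjusted p from limma, fitted to all probes tested in the tissue, with 5 mice per genotype. A probe was called at an adjusted p under 0.05. Rora checked the labels: its 3 probes were lower on every sg/sg array than on any WT array in both tissues, with log2 fold changes from -2.88 to -2.72. Of all probes, 56.5% to 62.4% per array were well above background in liver and 71.9% to 81.1% in WAT. All 13 hepatocyte markers measured were tested in liver and all 11 adipocyte markers in WAT.

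Some arrays stood apart from the others of their group. On WT WAT replicate 2, 10 of 20 Gst genes had their lowest and 6 their highest WT level, and the summed level of adipocyte markers was 737 times the array's 75th percentile against 1041 to 1187 on the other WT arrays. The sum of cholangiocyte markers was 25.2 on that array and 4.51 to 9.63 on the other WT arrays, and the part of either marker list in its Gst levels was not tested. On sg/sg WAT replicate 4, 11 of 20 Gst genes had their lowest and 5 their highest sg/sg level, and the adipocyte sum was 1717 against 1249 to 1468. In WT liver, 8 of 20 Gst genes had their highest and 6 their lowest level on replicate 2, 8 had their highest and 4 their lowest on replicate 5, and 1 had its highest and 8 their lowest on replicate 3. On sg/sg liver replicate 4, 12 of 20 had their highest and 4 their lowest sg/sg level. WT WAT replicate 3 and sg/sg WAT replicate 5 had the highest mean log2 level of hepatocyte markers, as described with the Ugt2 genes.

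In WAT, 7 transferase genes, each of the alpha, theta, pi or omega class, were higher in sg/sg than in WT mice, by 1.49-fold to 2.72-fold. Other genes of the alpha, theta and omega classes were not called. Of the 26 Gst probes tested there, 9 were higher and none lower, for 7 of 20 genes: Gsta1, Gsta3, Gsta4, Gstt1, Gstt3, Gstp1 and Gsto2. In some other settings 1 or 2 member probes were called lower, as given with the processing. None of the 14 Ugt probes passed the test in limma, and none was at an unadjusted p under 0.05 either. Together 9 of 40 probes (22.5%) were called, all higher, where 21.9% of all 32315 probes were called, 12.8% higher and 9.14% lower. Taken by genes, 7 of 31 were called (22.6%), against 23.8% of all genes with 1 probe each. The share of members called was therefore near that of the array, and the median log2 fold change was 0.36 over Gst probes, -0.17 over Ugt probes and 0.08 over all probes. Over genes by their brightest probe it was 0.37 for Gst and 0.079 for Ugt, so the sign for Ugt depends on the unit.

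**Figure D1:**
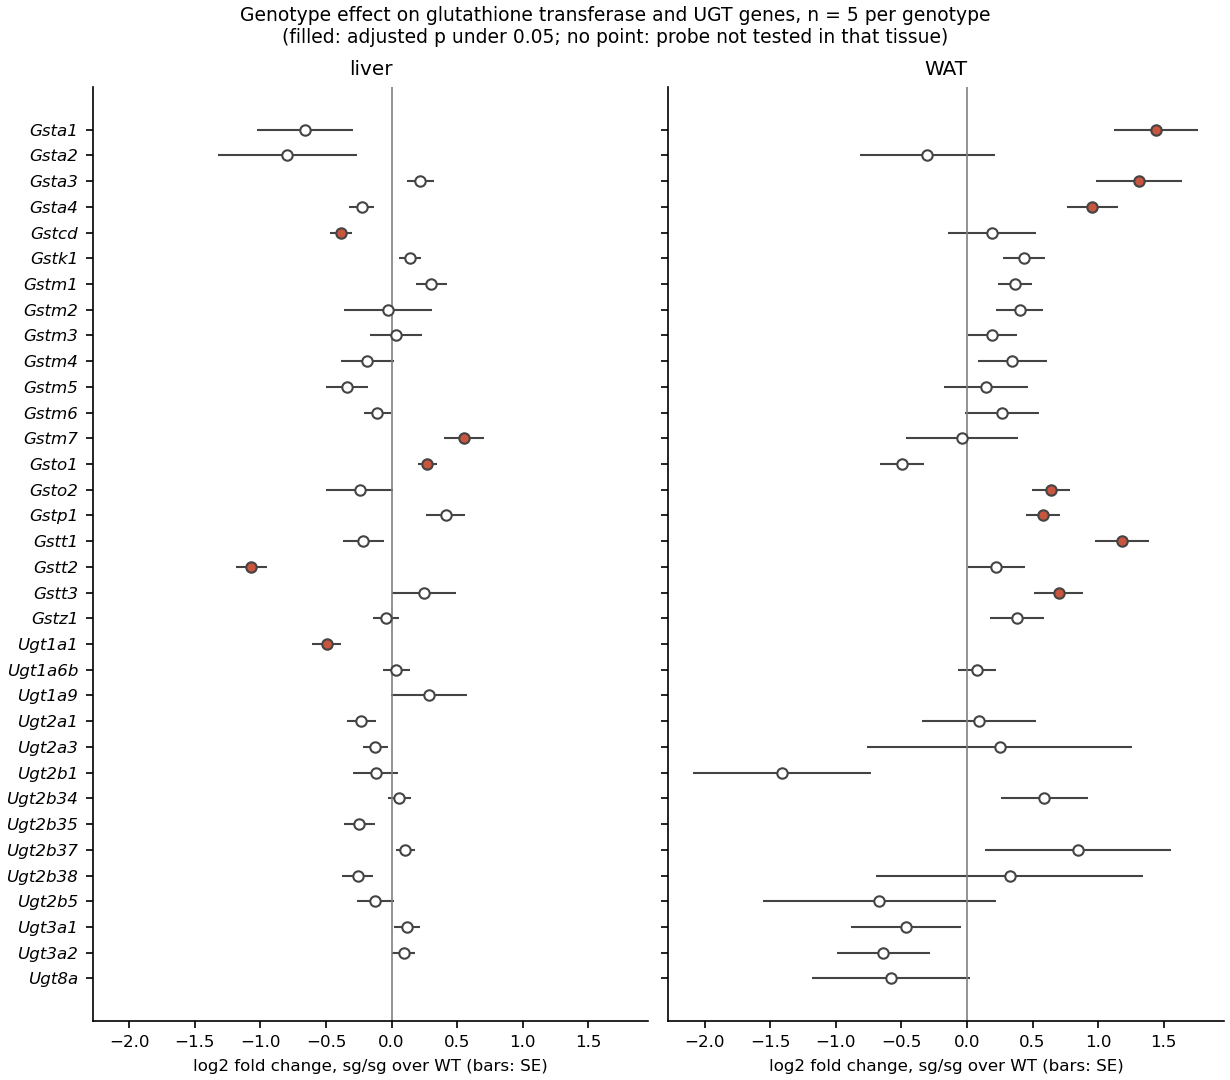
Log2 fold change of sg/sg over WT (x axis) for each Gst and Ugt gene (y axis), by its brightest probe, in liver (left) and WAT (right). Points are estimates and bars the SE, with 5 mice per genotype, and filled points passed an adjusted p under 0.05: 5 genes in liver, in both directions, and 7 Gst genes in WAT, all higher.

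The alpha class held the widest differences in WAT. Gsta1, an alpha enzyme with broad activity toward electrophiles, had levels of -1.44, -2.44, -1.11, -1.12 and -1.23 in WT mice and 0.65, 0.04, 0.34, -0.40 and -0.76 in sg/sg mice. Every sg/sg mouse was above every WT mouse, and the lowest value was that of WT replicate 2. The log2 fold change was 1.44 (SE 0.32, adjusted p = 0.011, 2.72-fold), and 1.20 (adjusted p = 0.014) without WT replicate 2.

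Gsta3, also of the alpha class, had levels of 4.02, 2.70, 4.22, 4.09 and 4.20 in WT, against 5.50, 5.04, 5.35, 5.55 and 4.37 in sg/sg WAT. The genotypes did not overlap, although sg/sg replicate 5 lay just above the highest WT mouse. Its log2 fold change was 1.31 (SE 0.33, adjusted p = 0.018), or 1.03 (adjusted p = 0.015) without WT replicate 2. The other Gsta3 probe gave 1.32 (SE 0.32, adjusted p = 0.016).

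Gsta4, the alpha enzyme with high activity toward the lipid peroxidation product 4-hydroxynonenal, had levels of 0.79, 0.52, 1.32, 1.32 and 1.19 in WT, against 2.22, 2.11, 2.18, 1.54 and 1.86 in sg/sg WAT. No sg/sg mouse was as low as any WT mouse. The log2 fold change was 0.95 (SE 0.19, adjusted p = 0.0075, 1.94-fold). Gsta2, whose probe overlaps that of Gsta1, was dim in WAT, at -6.65 ± 0.92 in WT and -6.96 ± 0.90 in sg/sg mice (SD, n = 5), with a log2 fold change of -0.30 (SE 0.52, adjusted p = 0.72).

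Theta enzymes act on small halogenated and sulfate substrates, and 2 of their 3 genes rose in WAT. For Gstt1 the levels were -0.84, -0.72, -0.80, -0.54 and -0.57 in WT, against 0.84, 0.64, 0.91, -0.18 and 0.22 in sg/sg mice. All WT mice lay within a narrow band below all sg/sg mice, of which replicate 4 was the lowest. The log2 fold change was 1.18 (SE 0.20, adjusted p = 0.0034, 2.27-fold), the smallest adjusted p of any member in WAT. For Gstt3 the levels were 1.18, 1.52, 1.48, 1.37 and 1.50 in WT, against 2.31, 2.33, 2.44, 1.42 and 2.04 in sg/sg mice. Here sg/sg replicate 4 fell inside the WT range and the other sg/sg mice were above it. Gstt3 changed by 0.70 (SE 0.19, adjusted p = 0.024), by 0.87 (adjusted p = 0.0013) without that array, and it was called in 5 of the 10 fits that left out 1 array. Gstt2, the third gene, changed by 0.22 (SE 0.22, adjusted p = 0.51) with overlapping groups.

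The pi enzyme Gstp1, an abundant transferase also known to bind stress kinases, had levels of 5.48, 4.93, 5.29, 5.22 and 5.24 in WT, against 5.74, 5.79, 5.70, 6.16 and 5.66 in sg/sg WAT. The groups did not overlap. The log2 fold change was 0.58 (SE 0.13, adjusted p = 0.012) on this probe and 0.58 (SE 0.14, adjusted p = 0.019) on the other. With arrays scaled to their median instead, the sizes were the same but the adjusted p rose to 0.054 and 0.068.

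Omega enzymes reduce dehydroascorbate and mixed disulfides, and 1 of their 2 genes passed in WAT. Gsto2 had levels of -1.99, -1.41, -1.96, -1.83 and -1.76 in WT, against -0.90, -1.06, -1.04, -1.47 and -1.28 in sg/sg mice. Only sg/sg replicate 4 and WT replicate 2 overlapped, and Gsto2 rose by 0.64 (SE 0.15, adjusted p = 0.013). A second, dim Gsto2 probe gave 0.23 (SE 0.26, adjusted p = 0.59). Gsto1 had levels of 4.30, 4.05, 4.28, 4.08 and 3.85 in WT, against 3.68, 3.86, 3.40, 3.16 and 3.98 in sg/sg mice. The groups overlapped at their edges, and its log2 fold change of -0.49 (SE 0.17, adjusted p = 0.059) did not pass.

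**Figure D2:**
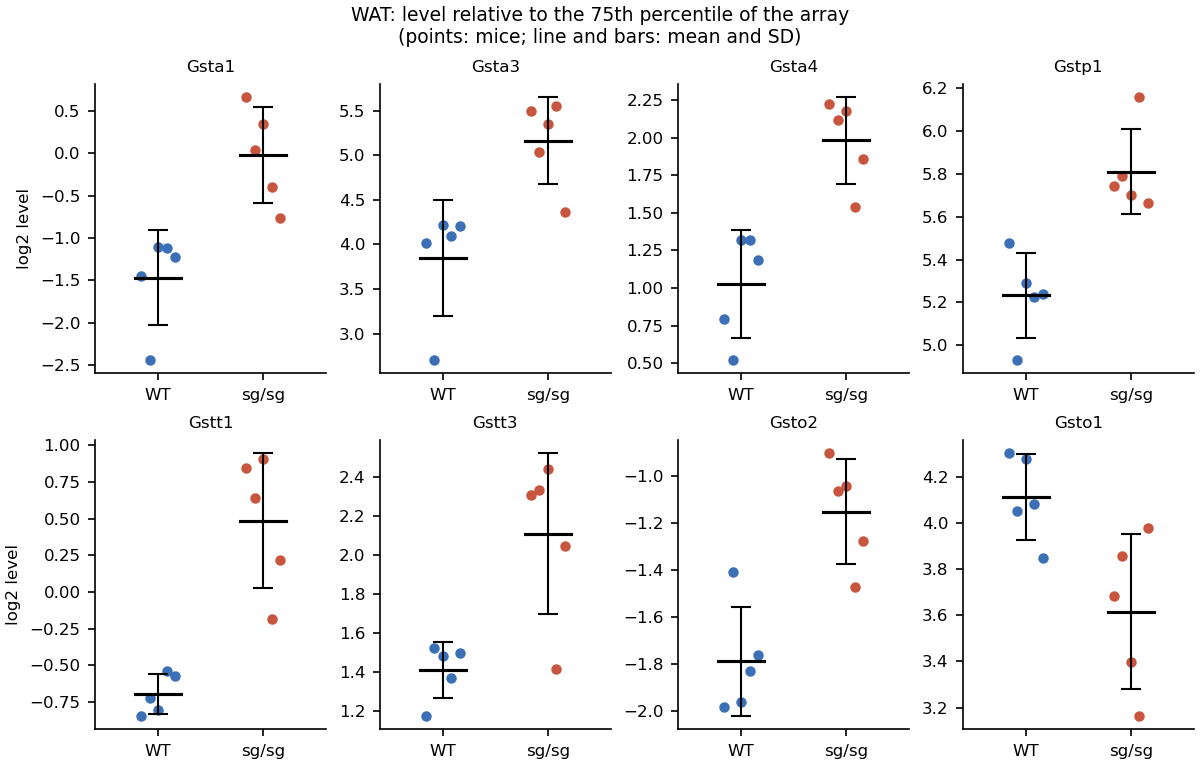
Log2 level relative to the array's 75th percentile (y axis, a separate range in each panel) of 8 Gst genes in WAT of WT and sg/sg mice (x axis). Points are mice and the lines and bars the mean and SD of 5. The first 7 genes passed the test and lay higher in sg/sg mice, and Gsto1 lay lower without passing it.

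No mu, kappa or zeta gene passed in WAT in limma. The 9 probes of the 7 mu genes ranged from -0.04 to 0.40 in log2 fold change, 2 of them at an unadjusted p under 0.05. Gstm1, a mu enzyme common in liver and fat, was at 6.62 ± 0.25 in WT and 6.99 ± 0.12 in sg/sg mice (SD, n = 5; log2 fold change 0.36, SE 0.13, adjusted p = 0.071). Gstm2 was at 4.53 ± 0.29 and 4.94 ± 0.29 (0.40, SE 0.18, adjusted p = 0.14), and Gstm3 at 5.68 ± 0.28 and 5.88 ± 0.33 (0.19, SE 0.19, adjusted p = 0.50). Gstk1, found in mitochondria and peroxisomes, changed by 0.44 (SE 0.16, adjusted p = 0.079) with groups that did not overlap. Gstz1, which isomerises maleylacetoacetate in tyrosine breakdown, changed by 0.38 (SE 0.21, adjusted p = 0.22).

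Markers of cell types also differed between genotypes in WAT. Of 11 adipocyte markers, 5 were higher and 1 lower in sg/sg mice, with a summed level of 737 to 1187 times the array's 75th percentile in WT and 1249 to 1717 in sg/sg mice. Of 13 macrophage markers, 9 were lower and none higher, with sums of 210 to 298 and 165 to 223. Among mesothelial markers 4 of 7 were higher (7.34 to 31.5 against 24.8 to 39.2), and among fibroblast markers 4 of 6 were lower (299 to 374 against 248 to 319). None of the 8 endothelial markers passed the test in limma and none was at an unadjusted p under 0.05, with sums of 47.4 to 69.7 and 60.3 to 79.5. Each of these lists had every marker well above background on some array. Their part in the Gst differences was not tested, and in bulk tissue fewer cells of a type and less RNA per cell cannot be told apart.

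The WAT slides each held both genotypes, and every called Gst probe was higher in sg/sg mice within each of the 3 slides. For probes whose groups did not overlap, that sign was fixed by the values over all arrays. Among the called genes only Gstt3 and Gsto2 overlapped, so that their sign within a slide could have differed. With slide as a block, 9 member probes were called as before, and 6081 of all 32315 probes. Gstt1 then changed by 1.20 (SE 0.20, adjusted p = 0.0078). Normexp background correction moved the median of all WAT probes from 0.08 to 0.49, and the calls among all 32315 probes from 7083 to 1492. With it 3 member probes were called: Gsta1 at 1.41 (adjusted p = 0.037), Gstt1 at 1.16 (adjusted p = 0.012) and Gsto2 at 0.79 (adjusted p = 0.024).

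Most Ugt genes were near background in WAT. Of 21 Ugt probes, 14 met the rule there and 6 were well above background on all 10 arrays. Those just inside the rule were the probes of Ugt2a3, Ugt2b1 and Ugt2b5, well above background on 5 arrays each. Those just outside were the probes of Ugt1a1 and Ugt2b35 and 1 probe of Ugt8a, on 2 arrays each. Ugt2b1 met the rule mainly through WT mice, with 4 WT arrays and 1 sg/sg array well above background, and its log2 fold change of -1.41 (SE 0.68, adjusted p = 0.17) did not pass.

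The Ugt2 enzymes conjugate steroids, bile acids and drugs, and in WAT single arrays of each genotype stood above the others. Ugt2a3 stood at -7.72, -8.51, -4.44, -7.83 and -10.24 in WT, against -6.74, -9.38, -8.27, -7.46 and -5.65 in sg/sg mice. Ugt2b5 stood at -8.45, -8.10, -4.62, -7.47 and -8.15 in WT, against -8.27, -10.13, -8.11, -7.96 and -5.66 in sg/sg mice. Both were highest on WT replicate 3 and sg/sg replicate 5, as was Ugt2b1 at -5.93 and -6.89.

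These were also the arrays with the highest mean log2 level of 13 hepatocyte markers, -0.79 and -1.15, where the other 8 arrays lay from -4.46 to -2.98. By the summed level, WT replicate 3 was again the highest WT array at 65.9, but sg/sg replicate 5, at 57.9, was below sg/sg replicates 3 and 1, at 67.9 and 62.2. Of 12 hepatocyte markers tested in WAT none passed between genotypes in limma and 1 was at an unadjusted p under 0.05. The summed level of all 13 on the array was 40.2 to 65.9 in WT and 41.1 to 67.9 in sg/sg mice. The part of liver RNA in these Ugt2 levels was not tested. Without both arrays, a setting chosen after the values were seen, 7 member probes were called in WAT, and 4455 of all 32315 probes. Gstt3 (0.73, adjusted p = 0.073) and Gsto2 (0.63, adjusted p = 0.0504) were no longer called.

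Ugt2b37 and Ugt2b38 showed a pattern that was the same in part, as both were highest among WT mice on replicate 3. Ugt2b37 stood at -5.45, -5.75, -3.12, -5.99 and -6.29 in WT, against -4.83, -2.82, -5.56, -5.66 and -3.50 in sg/sg mice. Ugt2b38 stood at -5.31, -5.51, -4.41, -6.36 and -6.56 in WT, against -8.18, -1.95, -5.61, -6.78 and -4.00 in sg/sg mice. Their highest level was on sg/sg replicate 2, followed among sg/sg mice by replicate 5. On sg/sg replicate 2, Ugt2a3, Ugt2b1 and Ugt2b5 were at their lowest of the group and the hepatocyte mean was -4.34. The second Ugt2b37 probe was also highest there, at -2.62. The log2 fold changes of Ugt2b37 and Ugt2b38 were 0.85 (SE 0.71, adjusted p = 0.44) and 0.32 (SE 1.02, adjusted p = 0.86).

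**Figure D3:**
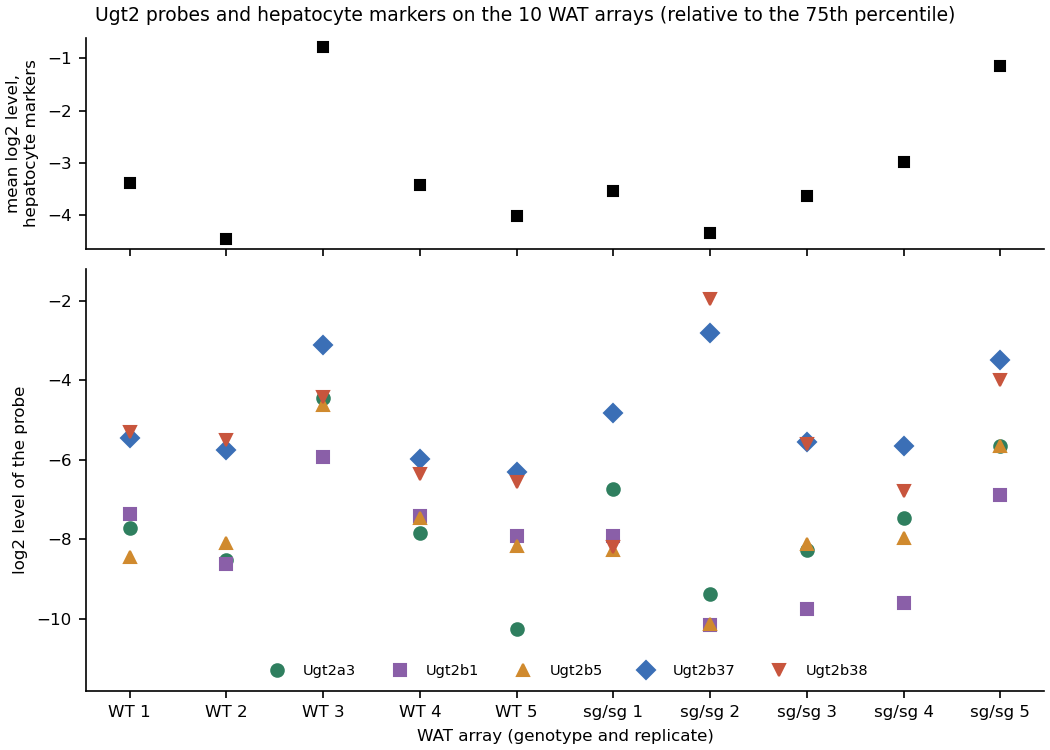
Mean log2 level of 13 hepatocyte markers (upper y axis) and log2 levels of 5 Ugt2 probes (lower y axis), both relative to the array's 75th percentile, on each WAT array (x axis). Ugt2a3, Ugt2b1 and Ugt2b5 peak within each genotype on the array with the highest hepatocyte mean (WT 3 and sg/sg 5). Ugt2b37 and Ugt2b38 peak on WT 3 among WT arrays and on sg/sg 2, then sg/sg 5, among sg/sg arrays.

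Other Ugt genes were measured in WAT with no call. The 3′-most Ugt1a probe stood at 4.56 ± 0.26 in WT and 4.64 ± 0.18 in sg/sg mice (SD, n = 5), a log2 fold change of 0.08 (SE 0.14, adjusted p = 0.74). Ugt3a2, of a group that uses other sugars than glucuronic acid, was at -1.34 ± 0.52 and -1.98 ± 0.71 (log2 fold change -0.64, SE 0.36, adjusted p = 0.23). Ugt8a, which makes the galactolipids of myelin, met the rule on 1 of its 3 probes in WAT and on none in liver.

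In liver the calls were fewer and in both directions. Gstt2, Gstcd and Ugt1a1 were lower and Gstm7 and Gsto1 higher in sg/sg mice, by 1.21-fold to 2.10-fold. These were 5 of 42 probes (11.9%), 2 higher and 3 lower, where 14.6% of all 24673 probes were called, 8.11% higher and 6.51% lower. By genes it was 5 of 33 (15.2%) against 16.3% of all genes with 1 probe each. The median log2 fold change was -0.02 over Gst probes, -0.12 over Ugt probes and 0.04 over all probes. Of the 42 probes, 41 were well above background on all 10 arrays, the exception being a second Gstcd probe that was so on 5 WT arrays and 1 sg/sg array. Leaving out 1 array gave 1 call without WT replicate 4 and 3 calls without WT replicate 2, WT replicate 3, sg/sg replicate 2 or sg/sg replicate 4. Of all probes, 1158 were called without WT replicate 4, and 2123, 1465, 2700 and 2622 in the other fits, in that order.

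Gstt2, the theta enzyme best known for acting on sulfate esters, showed the clearest difference in liver. Its levels were 3.0, 2.97, 3.15, 3.02 and 3.05 in WT, against 2.29, 1.67, 1.82, 1.91 and 2.16 in sg/sg mice. The WT mice lay close together and all sg/sg mice were below them. The log2 fold change was -1.07 (SE 0.12, adjusted p = 0.0024), 2.10-fold lower, and it was called in each of the 10 fits that left out 1 array. Its neighbours on chromosome 10 did not pass: Gstt1, whose probe lies 38.3 kb away, gave -0.21 (SE 0.16, adjusted p = 0.37), and Gstt3 gave 0.25 (SE 0.25, adjusted p = 0.52).

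Ugt1a1, the enzyme that conjugates bilirubin, had levels of 3.21, 3.31, 3.16, 3.27 and 3.28 in WT, against 2.71, 2.46, 3.09, 2.86 and 2.65 in sg/sg liver. All sg/sg mice were below all WT mice, replicate 3 by the least. Its log2 fold change was -0.49 (SE 0.11, adjusted p = 0.021, 1.41-fold lower). The 3′-most probe of the locus stood at 7.43, 7.56, 7.59, 7.54 and 7.83 in WT, against 7.48, 7.56, 7.87, 7.50 and 7.72 in sg/sg mice, with a log2 fold change of 0.04 (SE 0.10, adjusted p = 0.84). The groups overlapped on this probe, and the difference between it and the Ugt1a1 probe was not tested. The upstream Ugt1a6b probe gave -0.25 (SE 0.13, adjusted p = 0.21), and Ugt1a9, measured dimly, gave 0.28 (SE 0.29, adjusted p = 0.53).

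Gstcd, a transferase-like protein named for its domain and of no settled class, had levels of -1.23, -1.13, -1.40, -1.18 and -1.41 in WT, against -1.72, -1.60, -1.63, -1.76 and -1.55 in sg/sg liver. The groups did not overlap, and the log2 fold change was -0.38 (SE 0.08, adjusted p = 0.02). Its dim second probe gave -0.59 (SE 0.20, adjusted p = 0.078).

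Gstm7, a mu enzyme, had levels of 0.48, 0.02, 0.36, 0.40 and 0.25 in WT, against 0.66, 1.05, 0.63, 1.32 and 0.63 in sg/sg liver. No values overlapped, and the log2 fold change was 0.55 (SE 0.15, adjusted p = 0.037). Its second probe gave 0.33 (SE 0.13, adjusted p = 0.11). Gsto1 had levels of 5.38, 5.37, 5.22, 5.30 and 5.44 in WT, against 5.63, 5.63, 5.52, 5.72 and 5.58 in sg/sg liver, again without overlap. Its log2 fold change was 0.27 (SE 0.07, adjusted p = 0.035). Gstm7 was called in 4 and Gsto1 in 1 of the 10 fits that left out 1 array. Both calls were lost when arrays were scaled to their median, at 0.45 (adjusted p = 0.075) and 0.17 (adjusted p = 0.20), a scaling that moved the median of all liver probes from 0.04 to -0.07 and the share of called probes that were higher from 55.5% to 27.4%.

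**Figure D4:**
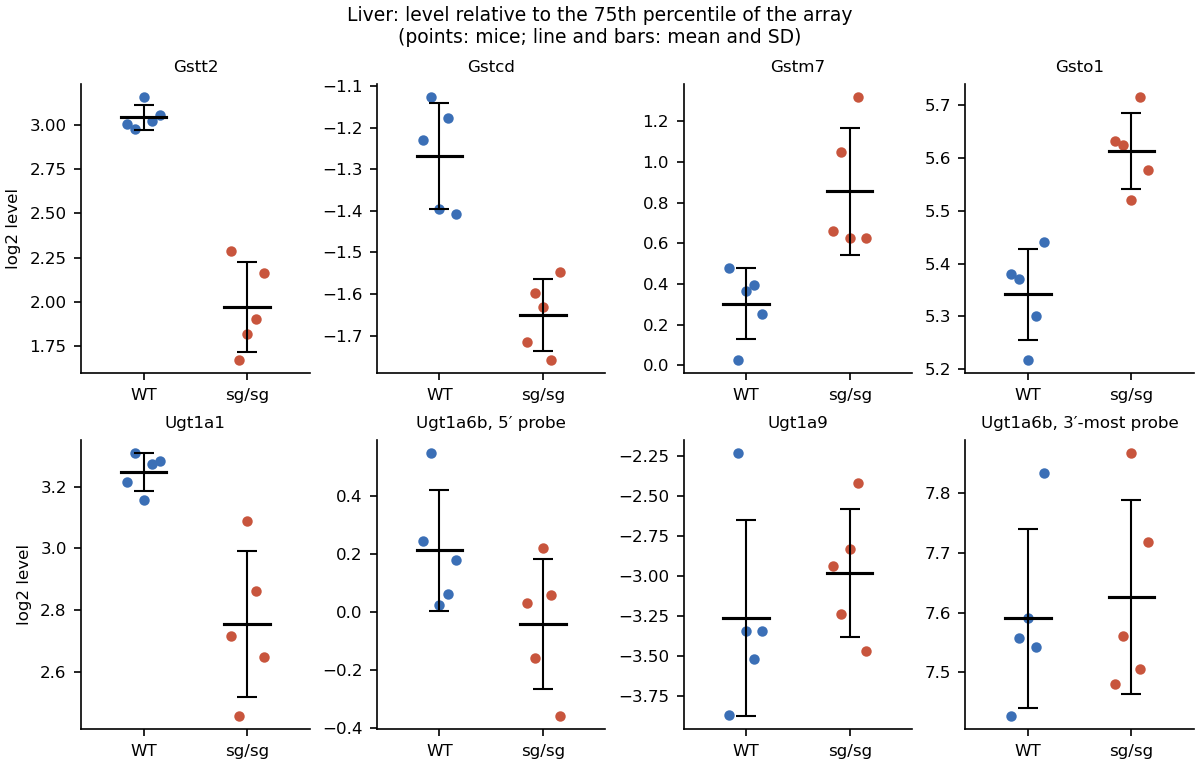
Log2 level relative to the array's 75th percentile (y axis, a separate range in each panel) in liver of WT and sg/sg mice (x axis) for the 5 called members and the other Ugt1a probes. Points are mice and the lines and bars the mean and SD of 5. Gstt2, Gstcd and Ugt1a1 lay lower and Gstm7 and Gsto1 higher in sg/sg mice without overlap, and the groups overlapped for the 3′-most Ugt1a probe.

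The members with strong signals in liver did not pass. Gstp1 had levels of 9.29, 8.77, 9.31, 9.01 and 9.52 in WT, against 9.57, 9.53, 9.32, 9.73 and 9.83 in sg/sg mice. The groups overlapped, and the spot was saturated on 1 WT and 4 sg/sg arrays, so that the log2 fold change of 0.41 (SE 0.15, adjusted p = 0.084) compares values at the scanner's limit. The second Gstp1 probe, never saturated, gave 0.45 (SE 0.15, adjusted p = 0.064). Gsta3 was at 8.52 ± 0.18 in WT and 8.73 ± 0.12 in sg/sg mice (SD, n = 5; 0.22, SE 0.10, adjusted p = 0.17), and Gstm1 at 8.48 ± 0.16 and 8.79 ± 0.20 (0.30, SE 0.12, adjusted p = 0.099). Gstm3 changed by 0.04 (SE 0.20, adjusted p = 0.92), and Ugt2b37, a steroid-conjugating enzyme, by 0.11 (SE 0.07, adjusted p = 0.33).

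Liver Gsta1 and Gsta2 varied widely between mice. Gsta1 stood at 4.59, 5.57, 4.56, 4.66 and 4.62 in WT, against 4.30, 4.68, 5.10, 3.13 and 3.48 in sg/sg mice, and Gsta2 at 0.40, 2.91, 0.10, 0.57 and 1.20 in WT, against 0.01, 1.54, 0.04, -0.40 and 0.01 in sg/sg mice. WT replicate 2 was the highest of its group for both. The log2 fold changes were -0.66 (SE 0.36, adjusted p = 0.24) and -0.79 (SE 0.53, adjusted p = 0.32), and without WT replicate 2 they were -0.47 (adjusted p = 0.42) and -0.33 (adjusted p = 0.60). The same array was the highest of the WT group for Gstm1, Gstm2, Gstm3, Gstm4 and Gstm5.

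No liver Ugt2 or Ugt3 probe passed in limma, and 1 of the 13 was at an unadjusted p under 0.05. The 7 probes of 6 Ugt2b genes ranged from -0.26 to 0.11, the 3 of Ugt2a1 and Ugt2a3 from -0.23 to -0.13, and the 3 of Ugt3a1 and Ugt3a2 from -0.13 to 0.12 in log2 fold change. The largest SE among Ugt probes not called in liver was 0.29, and the smallest 0.07. Ugt2a3 stood at 6.26 ± 0.17 in WT and 6.14 ± 0.08 in sg/sg liver, and Ugt2b5 at 5.65 ± 0.04 and 5.52 ± 0.33 (SD, n = 5).

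Slide and genotype were largely joined in liver. Slide 1 held 4 WT arrays, slide 2 held 1 WT and 3 sg/sg arrays and slide 3 held 2 sg/sg arrays, so that slide 2 alone held both genotypes. With slide as a block no member was called in limma, 7 were at an unadjusted p under 0.05, and 3 of all 24673 probes were called. Within slide 2 the log2 fold changes were -1.13 for Gstt2, -0.53 for Ugt1a1, -0.24 for Gstcd, 0.52 for Gstm7 and 0.15 for Gsto1. The groups of these genes did not overlap over all arrays, so their sign within slide 2 was fixed in advance. Gstp1 and Gsta3, whose groups overlapped, gave -0.05 and -0.15 against the single WT array of that slide. With slide as a random block Gstt2, Gstcd and Ugt1a1 were called, at adjusted p of 0.0041, 0.032 and 0.032. Of all probes, 2435 were called in that fit. Hepatocyte markers were higher in sg/sg liver in 5 of 13 cases, with sums of 3618 to 5040 in WT and 5267 to 5704 in sg/sg mice, macrophage markers in 5 of 12 (83.6 to 142 against 134 to 170), and endothelial markers in 4 of 8 (13.3 to 18.0 against 18.7 to 22.4). Of 6 adipocyte markers tested in liver 2 were lower (278 to 381 against 174 to 340). Each sum runs over all markers of a list on the array, tested or not. Of the 11 adipocyte markers summed, 3 were well above background on no liver array. The part of these markers in the member values was not tested.

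The genotype effect differed between tissues for several transferases. The interaction term, the log2 fold change in WAT minus that in liver, passed for 8 of 38 probes (21.1%), 7 above 0 and 1 below, against 19.9% of all 24342 probes tested (10.5% above and 9.38% below 0). All 8 were Gst probes, and none of the 13 Ugt probes tested passed in limma or was at an unadjusted p under 0.05. For Gsta1 the effect was 2.10 higher in WAT (SE 0.51, adjusted p = 0.0069), for Gstt1 1.40 higher (SE 0.26, adjusted p = 0.001) and for Gsta4 1.18 higher (SE 0.22, adjusted p = 0.00091). The Gsta3 probes gave 1.23 (SE 0.36, adjusted p = 0.021) and 1.10 (SE 0.35, adjusted p = 0.035), and Gsto2 gave 0.88 (SE 0.30, adjusted p = 0.047), called in 5 of the 20 fits that left out 1 array. Gstt2 gave 1.29 (SE 0.25, adjusted p = 0.0014), with the fall in liver, and Gsto1 -0.77 (SE 0.18, adjusted p = 0.0058), with estimates of opposite sign in the 2 tissues. With slide as a block 2 calls were left, Gstt1 at 1.73 (adjusted p = 0.025) and Gsto2 at 1.24 (adjusted p = 0.035). Of all probes, 770 of 24339 were then called.

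**Figure D5:**
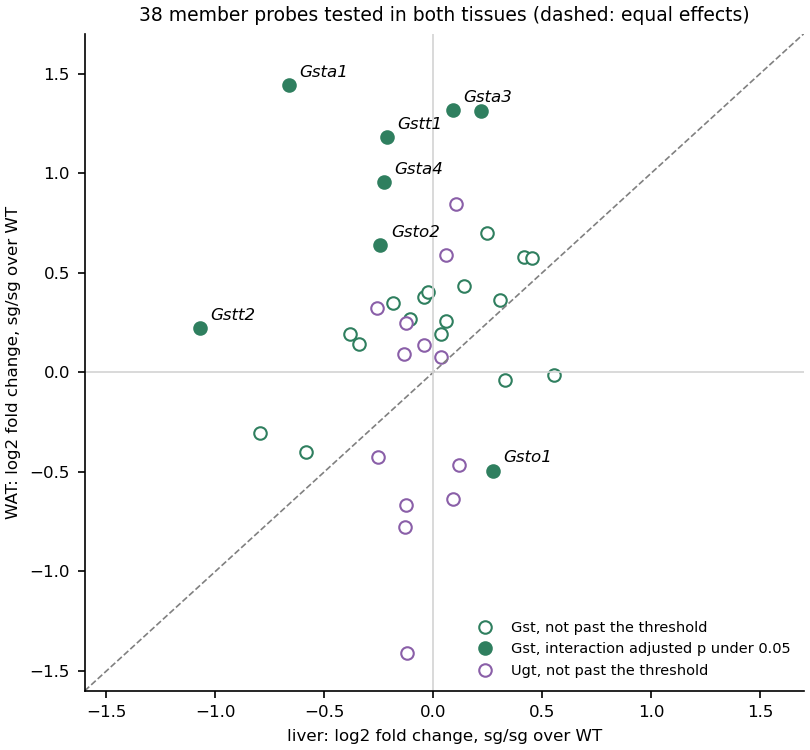
Log2 fold change of sg/sg over WT in liver (x axis) and in WAT (y axis) for the 38 member probes tested in both tissues, with the dashed line where both are equal. Filled points passed the interaction test: 7 Gst probes above the line and Gsto1 below it.

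Levels in the tissues were set side by side for probes well above background on all 5 WT arrays of both, since a level near background is only a bound. Of 25 such Gst probes, 21 were higher in WT liver than in WT WAT, with a median difference of 2.18 on the log2 scale and a range from -1.10 to 7.69. Gstm2, Gstm5 and Gsto2 were higher in WAT, at -0.71, -0.83 and -1.10 for liver minus WAT. A dim Gstcd probe was at -0.05 and turned to the other side of 0 with arrays scaled to their median. All 9 such Ugt probes were higher in liver, with a median difference of 8.29 and a range from 2.74 to 12.4, and also with arrays scaled to their median. The other Ugt member probes were not well above background on at least 1 WT array of either tissue and are left out here. Arrays of the tissues lay on different slides, so tissue and slide cannot be told apart, and these differences were given no test.

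The other enzymes that handle glutathione showed both directions in WAT. Of 12 such genes outside the members, 4 were higher and 4 lower in sg/sg WAT, with a median log2 fold change of -0.16. Mgst3, a membrane-bound transferase, rose by 0.75 (SE 0.12, adjusted p = 0.0029). Also called higher were Mgst2 at 0.60 (adjusted p = 0.028), Mgst1 at 0.41 (adjusted p = 0.047) and Ptges at 1.41 (adjusted p = 0.019). Alox5ap, the related activator of leukotriene synthesis in leukocytes, fell by 1.10 (SE 0.15, adjusted p = 0.0015). Gdap1, a transferase-like mitochondrial protein, was dim, at -6.60 in WT and -7.73 in sg/sg mice (log2 fold change -1.14, SE 0.27, adjusted p = 0.015). Its probe was well above background on 5 WT arrays and 2 sg/sg arrays, so the size of that difference is uncertain. Clic1, a channel protein with a transferase fold, fell by 0.55 (SE 0.13, adjusted p = 0.016), and Clic4 was at -0.39 (adjusted p = 0.031). In liver 1 of 10 was called, the leukotriene synthase Ltc4s, at 0.59 (SE 0.16, adjusted p = 0.033).

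For the synthesis and recycling of glutathione, 5 of 19 genes were higher and 3 lower in WAT, with a median of 0.17. Gclc, the catalytic subunit of the first enzyme of glutathione synthesis, rose by 0.38 (SE 0.10, adjusted p = 0.019) and the peroxidase Gpx8 by 0.47 (SE 0.12, adjusted p = 0.019). Slc7a11, the cystine importer, was well above background on the 5 WT arrays and on none of the sg/sg arrays. It was called lower, but met the filter only through its WT arrays, so its p is not given. By a bound it was at least 2.47-fold lower in sg/sg mice. Such a bound sets the WT mean against the mean, per sg/sg array, of the lowest signal well above background or the probe's own if higher. The peroxidase Gpx7 fell by 0.44 (SE 0.09, adjusted p = 0.0073). In liver 2 of 17 were called, both higher: Slc3a2, the partner chain of that importer, at 0.45 (SE 0.08, adjusted p = 0.0094), and Gpx3 at 0.64 (SE 0.16, adjusted p = 0.03).

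NRF2 is the transcription factor best known for inducing Gst genes through antioxidant response elements. Of 17 genes of its pathway, none was higher in sg/sg WAT in limma (1 at an unadjusted p under 0.05) and 4 were lower, with a median of -0.09. The heme oxygenase Hmox1 fell by 1.50 (SE 0.25, adjusted p = 0.0029), the epoxide hydrolase Ephx1 by 1.10 (SE 0.23, adjusted p = 0.0083), the carboxylesterase Ces1g by 1.51 (SE 0.37, adjusted p = 0.016) and the sulfiredoxin Srxn1 by 0.57 (SE 0.17, adjusted p = 0.04). In liver Ces1g fell by 1.32 (SE 0.19, adjusted p = 0.0052) and G6pdx, which supplies NADPH, rose by 0.38 (SE 0.11, adjusted p = 0.043), the 2 calls among 17.

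Around glucuronidation, 1 of 8 supply genes rose and 1 fell in WAT. Ugp2, which makes UDP-glucose, rose by 0.37 (SE 0.10, adjusted p = 0.023), and Gusb, the lysosomal enzyme that removes glucuronic acid, fell by 1.03 (SE 0.22, adjusted p = 0.0087). In liver the single call among 8 was Gulo, of ascorbate synthesis, at 0.31 (SE 0.09, adjusted p = 0.045). Of 15 transporters tested in liver, 2 were lower and 2 higher: Abcc3, which exports glucuronides to blood, fell by 1.34 (SE 0.21, adjusted p = 0.0076) and Abcg2 by 0.94 (SE 0.19, adjusted p = 0.016), while the bile salt pump Abcb11 rose by 0.50 (SE 0.13, adjusted p = 0.028) and Abcc5 by 0.42 (SE 0.11, adjusted p = 0.029). In WAT 1 of 15 was called, Slco1a4, at 1.24 (SE 0.29, adjusted p = 0.013).

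Receptors and factors that control these families were called in both tissues. In liver Nr1i2, the pregnane X receptor, fell by 0.54 (SE 0.10, adjusted p = 0.012), Ppara, the fatty acid receptor, fell by 0.65 (SE 0.13, adjusted p = 0.013) and Foxa1 rose by 0.29 (SE 0.07, adjusted p = 0.027), 3 of 16 tested. In WAT Ppara rose by 0.73 (SE 0.13, adjusted p = 0.0041) and Cebpa, an adipocyte and liver factor, by 0.60 (SE 0.13, adjusted p = 0.01), 2 of 13 tested. The lists had been drawn up with earlier results of these data known.

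Promoters were read because several alpha and theta genes rose together in WAT. RefSeq promoters on GRCm38.p6, from 250 bases before to 50 bases after a start, were matched for 30 of the 34 genes, with 39 starts. The core of the antioxidant response element, TGACNNNGC on either strand, was found at 3 of these 39 starts (7.69%), of Gsta3, Gstm5 and Gstm7, and at 12.4% of all 32851 promoters. A strict form of the ROR response element, AGGTCA preceded directly by AANT, searched on either strand, was at none of the 39 and at 0.219% of all promoters. A motif so rare would be absent from most sets of 39 starts, so its absence says little about these genes. No window of the members held both motifs. The 250 bases before the Gsta3 start, chr1:21240335-21240584 on the plus strand, are shown because Gsta3 alone held a match among the genes called in WAT that have a promoter here, as Gsta4 has not. The match is in capitals and ends 112 bases before the start.
Gsta3 promoter: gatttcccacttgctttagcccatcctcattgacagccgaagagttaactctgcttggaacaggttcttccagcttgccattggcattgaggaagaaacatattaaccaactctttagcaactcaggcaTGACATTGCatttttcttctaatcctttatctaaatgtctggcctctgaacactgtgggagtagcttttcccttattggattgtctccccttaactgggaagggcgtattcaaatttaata
A match of letters is a description of this window and was not tested as a binding site.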

How the data were processed

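RNA from liver and WAT of 5 WT and 5 sg/sg mice was hybridised to 1-colour (Cy3) Agilent mouse arrays, 20 in all. The authors' deposited processed intensity of each spot came from Agilent Feature Extraction 9.5, per the submitters' processing notes, with spatial and multiplicative detrending and surrogates for signals at background, per the file headers. The authors' deposited value table held the same linear, uncentred intensities, with a highest relative difference of 0 and column medians of 42.5 to 65.6 in liver and 88.8 to 220.8 in WAT. Other deposited columns used were flags and annotation.

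From these, log2 intensity minus each array's 75th percentile was computed. Controls were left out, outlier spots were set missing and spots of a probe averaged. A probe was tested in a tissue if well above background on at least 4 of its 10 arrays and missing on at most 2. Genotypes were compared per tissue with limma 3.58.1 in R 4.3.3 (lmFit, eBayes, two-sided, Benjamini-Hochberg over all probes), and tissues by the interaction over 20 arrays. The fits were tested on simulated data. Tables were made with Python 3.11.15.

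A gene is described by its brightest probe in the tissue. Full values are given for genes called in a tissue or in the interaction and for the 6 genes with the brightest probes of each tissue. From the pathway lists up to 4 called genes per list and tissue were named by smallest p, and some further values were picked for description after they were seen. Members and lists were chosen with earlier results of these data known. Symbols of 43 of 47 member probes matched RefSeq. No exon or UTR was assigned to a probe. The number of arrays limits the precision, and p-values measure the spread between the 5 mice of a group. Alternatives were other scalings, background correction, filters, slide and replicate blocks, fits to all arrays and leaving out arrays.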

Additional observations from a re-analysis of the deposited data

Results flagged for a closer look

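For each Gst and Ugt gene, by its brightest probe, an array was picked out where it lay farther from the other 4 of its group than the critical value of Dixon's test allows. Chance picks about 5% of groups, 128 groups were looked at, and 23 arrays were picked. Values are log2 levels relative to the array's 75th percentile.

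WT WAT replicate 2 was picked for 7 genes, the most of any array. It was lowest for Gsta1 at -2.44, Gsta3 at 2.70, Gstk1 at 2.97, Gstm4 at -0.70 and Ugt3a2 at -2.23, and highest for Gstm5 at 3.36 and Ugt8a at -4.82. WT WAT replicate 3 was highest for Ugt2b37 at -3.12 and Ugt2b5 at -4.62. Among sg/sg WAT arrays, replicate 4 was highest for Gstcd at -0.011, Gstm2 at 5.44 and Gstp1 at 6.16, and replicate 2 was highest for Gstm5 at 2.29.

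In liver, WT replicate 5 was highest for Gsta3 at 8.83, Gsto2 at -2.26 and Gstt3 at 5.50, and WT replicate 2 for Gsta1 at 5.57. Among sg/sg livers, replicate 2 was highest for Gsta2 at 1.54, replicate 4 was highest for Gstm1 at 9.14 and lowest for Ugt2b5 at 4.94, and replicate 5 was lowest for Gstm3 at 6.73 and highest for Ugt3a1 at 6.02 and Ugt3a2 at 6.44.

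The genotype effect differed between the tissues, by the interaction test in limma, for 8 probes. The difference, WAT minus liver, was 1.18 for Gsta4, 1.40 for Gstt1, 1.29 for Gstt2, -0.77 for Gsto1, 2.10 for Gsta1, 1.23 and 1.10 for the Gsta3 probes and 0.88 for Gsto2.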

How the results depend on the processing

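The number of member probes called in liver, 5 as reported, was 8 with normexp and 1 with no filter. It was 0 with slide as a block and within slide 2, and 3 with slide as a random block. With all 20 arrays in the fit it was 2, and with 1 array left out 1 to 6. Calls among all liver probes, 3605 of 24673 as reported, were 4730 with normexp and 1245 of 41153 with no filter. They were 3 with slide as a block, 0 of 24670 within slide 2 and 2435 with slide as a random block. With all 20 arrays in the fit they were 3398, and with 1 array left out 1158 to 4106. In WAT, 9 became 3 with normexp, 0 within slide 1, 0 within slide 2 and 0 within slide 3, and 8 to 12 with 1 array left out. The interaction count of 8 became 2 with slide as a block and 6 to 9 with 1 array left out. Among all probes, 4833 interaction calls of 24342 became 770 of 24339 with slide as a block and 3934 to 6260 with 1 array left out. The cause was not tested, beyond the fewer arrays within a slide. Some liver genes that did not pass changed sign. Gsta3 was at -0.0054 with quantile normalization and -0.15 with slide as a block or within slide 2, and Gstp1 at -0.050 and Ugt2b37 at -0.026 in the last 2 settings. Gstm3 was at -0.068 with median scaling, -0.063 with quantile normalization and -0.060 to 0.24 with 1 array left out. The 3′-most Ugt1a6b probe was at -0.068 with median scaling, -0.037 with quantile normalization, -0.084 with normexp, -0.20 with slide as a block or within slide 2, and -0.024 to 0.097 with 1 array left out. In WAT, Gstm3 was at -0.13 within slide 1, and that Ugt1a6b probe at -0.13 with normexp, -0.091 within slide 2 and -0.024 to 0.16 with 1 array left out. Median scaling moved the share of called interactions above 0 among all probes from 52.8% to 65.4%, and normexp moved the share of called liver probes that were higher from 55.5% to 64.7%.

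Replicate numbers were not taken to pair the samples. Deviations of same-numbered arrays correlated at -0.14 to 0.17, which cannot show whether a liver and a WAT array share a mouse. With the replicate block 1 member probe was called in liver, 8 in WAT and 8 in the interaction. Among all probes the calls were then 1658 of 24673, 4488 of 32315 and 4023 of 24342.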

Other observations

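Markers of tissues next to those sampled gave these values, with sums over all markers of a list on the array, tested or not. Of 5 exocrine pancreas markers tested in liver, 2 were higher in sg/sg mice, with sums of 4.91 to 5.72 times the array's 75th percentile in WT and 5.19 to 7.65 in sg/sg mice. Of 7 cholangiocyte markers in WAT, 3 were higher and 1 lower, with sums of 4.51 to 25.2 in WT and 7.49 to 11.6 in sg/sg mice, the 25.2 being that of WT replicate 2. Of 5 epididymis markers tested in WAT none passed in limma and 2 were at an unadjusted p under 0.05, with sums of 0.05 to 0.81 in WT and 0.05 to 0.10 in sg/sg mice. Of 6 fibroblast markers tested in liver none passed and none was at an unadjusted p under 0.05 in limma.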
